A study of Mus musculus with 12 samples.

Results

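The tumour necrosis factor (TNF) family ligands described here are the genes Tnf, Lta, Ltb, Tnfsf8, Tnfsf9, Tnfsf10, Tnfsf11, Tnfsf14, Fasl and Cd40lg. They were listed by gene symbol, with earlier results of these data known, and 10 of 10 had a probe set annotated to that gene alone, among 18193 genes on the array. Where a gene had several such probe sets (Tnfsf10, Tnfsf11, Tnfsf14 and Fasl), the one with the highest mean over the 12 arrays stood for it and the others served as a check. The cells were unsorted lymph node cells of P14-TCR mice, which carry a transgenic T cell receptor of CD8 T cells for the viral peptide gp33-41. There were 4 groups of 3 arrays, namely PKD2-null cells cultured for 4 h with 62.5 ng/ml of peptide, PKD2-null cells cultured without peptide, wild-type cells with peptide and wild-type cells without peptide. The P14 receptor was common to all groups. Arrays of a genotype with the same sample number, 1 with and 1 without peptide, were taken as those of 1 mouse. No source used here gives the ages of the mice or how the PKD2 gene was disrupted.

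TNF family ligands are mostly trimeric type II membrane proteins on the surface of immune cells, and some are also cut off and act as soluble cytokines. They bind receptors of the TNF receptor family on neighbouring cells, which recruit TRAF adaptors to switch on NF-kappaB and MAP kinases or, where the receptor has a death domain, caspases. T cells make several of them soon after the antigen receptor is engaged, and through them they act on dendritic cells, B cells, stromal cells and target cells. PKD2 is a serine/threonine kinase that diacylglycerol and protein kinase C activate downstream of that receptor.

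Prkd2, which encodes PKD2, checked the labels: its log2 signal was 5.60, 5.47 and 5.36 in null cells with peptide, against 8.16, 8.30 and 8.52 in wild-type cells with peptide. The other 6 arrays gave 6.33, 5.87 and 5.80 in null cells and 10.17, 10.34 and 9.99 in wild-type cells. CD8 T cell markers were present throughout, Cd8a with group means of 10.15 to 10.46, but B cell markers such as Cd79b were present as well, so the signals below are those of mixed cells. The mean over 7 CD8 T cell markers ran from 10.47 to 10.89 in null cells and from 10.41 to 10.54 in wild-type cells with peptide. That over 12 B cell markers ran from 8.58 to 9.33 in null cells and from 8.10 to 8.26 in wild-type cells with peptide, and from 9.20 to 9.92 and from 8.74 to 8.82 without it. Signals are on the log2 scale, where the median probe set lay at 4.71. A gene was called where its two-sided limma p, Benjamini-Hochberg adjusted, was under 0.05, fitted over 45037 probe sets on the 12 arrays.

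With antigen, 7 of the 10 ligand genes rose in null cells and 7 rose in wild-type cells: Tnf, Lta, Tnfsf14, Tnfsf11, Fasl, Tnfsf9 and Tnfsf8 in both genotypes. Of all genes, 12.5% rose in null cells and 15.1% in wild-type cells. For each of these genes the 3 values with peptide lay above the 3 without peptide in either genotype, as for 17.4% of all genes in null and 21.5% in wild-type cells. The median change of the 10 genes was 1.77 in null cells, where that of all genes was -0.02, and 1.75 in wild-type cells, where that of all genes was 0.01. Ltb, Tnfsf10 and Cd40lg did not pass in either genotype. Of these ligands 1, Tnfsf11, differed between the genotypes in the presence of peptide, where 0.544% of all genes were lower in null cells and 1.64% were called either way.

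**Figure D1:**
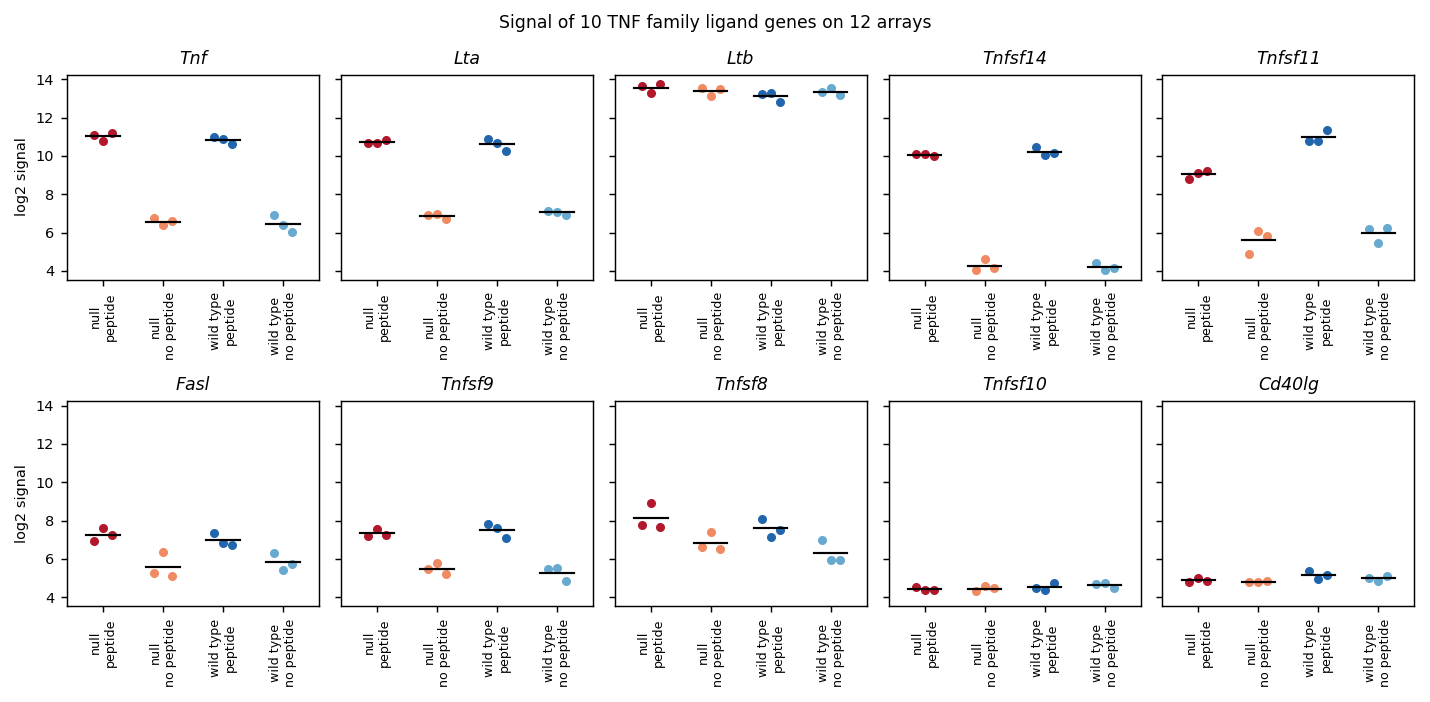
Log2 signal of the 10 ligand genes on the 12 arrays, each dot an array and each bar the mean of 3, with null cells left of wild-type cells and peptide left of no peptide. For 7 genes the arrays with peptide lie above those without, and Tnfsf11 with peptide lies lower in null than in wild-type cells.

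Tnf, which encodes the inflammatory cytokine TNF (probe set 1419607_at), had log2 signals of 11.11, 10.75 and 11.18 in null cells with peptide, against 6.74, 6.37 and 6.58 in null cells without it. Wild-type cells gave 10.96, 10.90 and 10.64 with peptide, against 6.89, 6.41 and 6.01 without. The groups with and without peptide were far apart and the genotypes overlapped. The rise was 21.9-fold in null cells (log2 4.45, SE 0.20, limma adjusted p = 1.7e-08) and 21.1-fold in wild-type cells (4.40, SE 0.20, adjusted p = 7.8e-09). With peptide, null minus wild type was 0.18 (95% confidence interval -0.24 to 0.61, limma adjusted p = 0.71).

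Lta encodes lymphotoxin alpha, which acts as a soluble trimer on TNF receptors or joins lymphotoxin beta in a membrane trimer. Its log2 signals (1420353_at) were 10.65, 10.68 and 10.81 in null cells with peptide, against 6.93, 6.97 and 6.69 without it. In wild-type cells they were 10.90, 10.65 and 10.27 with peptide, against 7.14, 7.09 and 6.92 without. Again peptide separated the arrays completely and genotype did not. The rise was 14.5-fold in null cells (3.85, SE 0.14, limma adjusted p = 6.7e-09) and 11.8-fold in wild-type cells (3.56, SE 0.14, adjusted p = 3.4e-09).

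Ltb, which encodes lymphotoxin beta, the membrane anchor of the lymphotoxin trimer and a ligand needed for lymph node structure, did not follow its neighbours. Its signals (1419135_at) were 13.62, 13.29 and 13.76 in null cells with peptide, against 13.54, 13.12 and 13.48 without it, and 13.23, 13.29 and 12.80 in wild-type cells with peptide, against 13.32, 13.54 and 13.19 without. Ltb was thus high on all 12 arrays, and the groups overlapped in each pair. The change with peptide was 0.18 in null cells (interval -0.18 to 0.54, limma adjusted p = 0.54) and -0.24 in wild-type cells (-0.60 to 0.12, adjusted p = 0.34). Naive lymphocytes, B cells included, express Ltb at rest, and fewer cells of a type cannot be told apart from less RNA per cell in these samples.

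Tnfsf14 encodes LIGHT, a ligand of the receptor HVEM and of the lymphotoxin beta receptor, and costimulates T cells. Its signals (1450298_at) were 10.10, 10.10 and 9.97 in null cells with peptide, against 4.04, 4.61 and 4.15 without it. In wild-type cells they were 10.45, 10.04 and 10.14 with peptide, against 4.43, 4.03 and 4.13 without. It was the ligand with the largest change in either genotype, from a resting signal below that of the median probe set. The change was 5.79 in null cells (SE 0.16, limma adjusted p = 9.7e-10) and 6.01 in wild-type cells (SE 0.16, adjusted p = 6.1e-10). The other probe set of the gene, 1421588_at, changed by 4.73 in null cells (adjusted p = 1.4e-08) and 5.37 in wild-type cells (adjusted p = 2.5e-09). With peptide this probe set gave 8.84, 8.79 and 8.81 in null cells, against 9.54, 9.21 and 8.95 in wild-type cells. The null values all lay below the wild-type values there, as for 12.8% of all genes, whereas those of the main probe set overlapped. The difference passed for neither, at -0.42 for this probe set (SE 0.20, limma adjusted p = 0.33) and -0.16 for the main one (adjusted p = 0.69).

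Tnfsf11 encodes RANKL, the ligand of the receptor RANK, which promotes dendritic cell survival, lymph node formation and osteoclast development. Its signals (1419083_at) were 8.78, 9.09 and 9.23 in null cells with peptide, against 4.90, 6.08 and 5.82 in null cells without it. Wild-type cells gave 10.80, 10.80 and 11.33 with peptide, against 6.19, 5.46 and 6.24 without. All 3 null values with peptide lay below the 3 wild-type values with peptide, and the values without peptide overlapped between genotypes. Null values with peptide all below the wild-type ones occurred for 12.8% of all genes. The rise was 10.8-fold in null cells (3.43, SE 0.29, limma adjusted p = 2.2e-06) and 32.3-fold in wild-type cells (5.01, SE 0.29, adjusted p = 5.6e-08).

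With peptide, Tnfsf11 was 3.84-fold lower in null than in wild-type cells (log2 -1.94, SE 0.29, interval -2.57 to -1.32, limma adjusted p = 0.011). Its other probe set, 1451944_a_at, had signals of 7.26, 7.63 and 7.52 in null cells with peptide, against 9.27, 8.93 and 9.80 in wild-type cells with peptide. This probe set was lower in null cells by about the same amount (-1.86, SE 0.19, limma adjusted p = 0.0014). The call of the main probe set was lost without wild-type replicate 3, which has the highest value of its group (-1.77, adjusted p = 0.063), and held without each of the other 5 mice. Over all alternatives planned the adjusted p lay between 0.0019 and 0.063. Without peptide, Tnfsf11 did not pass between the genotypes (-0.36, interval -0.99 to 0.26, limma adjusted p = 0.78).

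Per mouse, the change of Tnfsf11 with peptide was 3.88, 3.01 and 3.41 in null cells, against 4.61, 5.34 and 5.09 in wild-type cells. The responses of the 3 null mice were all below those of the 3 wild-type mice, as they were for 11.2% of all genes. The difference of the stimulation effects, null minus wild type, was -1.58 (SE 0.41, interval -2.46 to -0.69), which did not pass over all probe sets (limma unadjusted p = 0.0021, adjusted p = 0.46). Blocking on the mouse gave an adjusted p = 0.066. For the other probe set the difference was -1.95 (SE 0.27, limma adjusted p = 0.081, or 0.0097 when blocked by mouse, an alternative chosen after seeing the data). The level of Tnfsf11 with antigen thus differed between the genotypes, while the difference in its response passed for 1 of 2 probe sets, and there with the pairing.

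**Figure D2:**
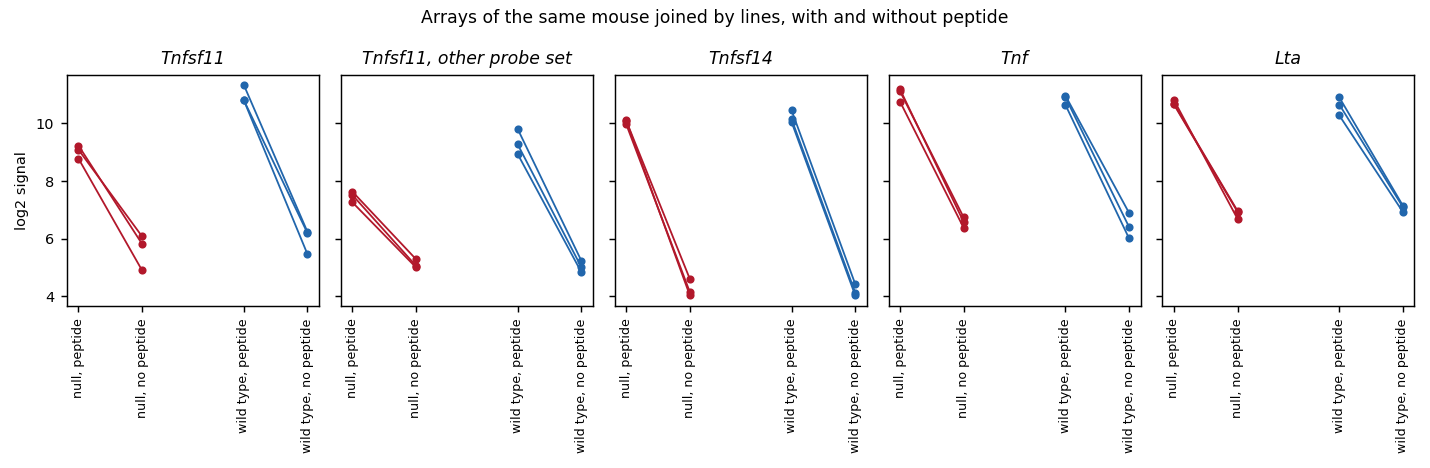
Log2 signal with and without peptide, the arrays of a mouse joined by a line, null mice in red and wild-type mice in blue. Both Tnfsf11 probe sets reach lower signals in the 3 null mice with peptide, while Tnf, Lta and the main probe set of Tnfsf14 overlap between the genotypes; the other Tnfsf14 probe set, which does not overlap with peptide, is not drawn.

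Some cell type markers also differed between null and wild-type cells with peptide. Of 7 CD8 T cell markers 0 were called (limma, median difference 0.29), and 3 had an unadjusted p under 0.05. Of 4 CD4 T cell, 9 myeloid and 6 stromal markers 0 were called, with unadjusted p under 0.05 for 1 myeloid marker and 0 of the others. Of 12 B cell markers 3 were higher in null cells, Cd79b, Fcrla and Ighm, with an unadjusted p under 0.05 for 9 and a median difference of 0.70. Of 5 plasma cell markers 1, Sdc1, was higher, with an unadjusted p under 0.05 for 3 and a median difference of 0.83. Of 5 NK cell markers 1 was lower, Klrd1, with an unadjusted p under 0.05 for 2 and a median difference of -0.43. Klrd1 had group means of 9.81 to 11.93, while Ncr1 of the same list had 3.73 to 3.95, below the median probe set. Of 6 salivary gland transcripts 1 was lower, Dcpp3, with an unadjusted p under 0.05 for 2, a median difference of -2.23 and a mean over the list of 4.72 to 7.38 in null cells and 7.40 to 9.18 in wild-type cells. Among all genes 1.64% were called in this comparison and 17.6% had an unadjusted p under 0.05. The marker genes named here were picked for their calls, apart from Ncr1, picked for its low signal. The part of cell composition in the Tnfsf11 difference was not tested.

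Fasl and Tnfsf10 encode death ligands. Fasl, the ligand of Fas on target cells and activated lymphocytes (1449235_at), had signals of 6.91, 7.62 and 7.25 in null cells with peptide, against 5.25, 6.35 and 5.12 without it. In wild-type cells they were 7.37, 6.84 and 6.72 with peptide, against 6.29, 5.43 and 5.74 without. The values with peptide lay above those without it, and the genotypes overlapped. It rose 3.23-fold in null cells (1.69, SE 0.32, limma adjusted p = 0.0014) and 2.23-fold in wild-type cells (1.16, SE 0.32, adjusted p = 0.014). Null replicate 2 was the highest null mouse in both conditions, as it was for the mean of the B cell markers, whose part was not tested. The wild-type call was lost without wild-type replicate 2 (adjusted p = 0.099) and without wild-type replicate 3 (adjusted p = 0.054). The other probe set, 1418803_a_at, changed by 1.30 in null cells (limma adjusted p = 0.005) and 0.94 in wild-type cells (adjusted p = 0.028).

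Tnfsf10, which encodes TRAIL, gave signals between 4.32 and 4.76 on all 12 arrays (1439680_at), near the median probe set at 4.71. These are low on a scale from 2.43 to 15.07, and all groups of Tnfsf10 overlapped. Its change was -0.0065 in null cells (interval -0.24 to 0.23, limma adjusted p = 0.98) and -0.10 in wild-type cells (-0.34 to 0.13, adjusted p = 0.57). A dimmer probe set, 1420412_at, was called in wild-type cells (0.39, limma adjusted p = 0.018), from a mean of 4.08 with peptide against 3.70 without, and did not pass in null cells (0.22, adjusted p = 0.21). The probe set 1459913_at passed in neither.

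The remaining ligands are costimulatory. Tnfsf9, the ligand of CD137, is best known from antigen-presenting cells. Its signals (1422924_at) were 7.19, 7.56 and 7.26 in null cells with peptide, against 5.49, 5.78 and 5.20 without it, and 7.80, 7.59 and 7.09 in wild-type cells with peptide, against 5.49, 5.50 and 4.86 without. The values with and without peptide did not overlap, and those of the genotypes did. It rose 3.58-fold in null cells (1.84, SE 0.22, limma adjusted p = 3.7e-05) and 4.62-fold in wild-type cells (2.21, SE 0.22, adjusted p = 5.3e-06). Per mouse the change was 1.70, 1.77 and 2.06 in null cells, against 2.30, 2.09 and 2.23 in wild-type cells. These did not overlap, and null responses all lay below the wild-type ones for 11.2% of all genes. The difference of -0.37 did not pass (interval -1.04 to 0.31, limma adjusted p = 0.86). As for Fasl, null replicate 2 was the highest null mouse for Tnfsf9 in both conditions, like the mean of the B cell markers, whose part was not tested. The share of all genes with this order was not counted.

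Tnfsf8 encodes the ligand of CD30. Its signals (1450272_at) were 7.75, 8.89 and 7.68 in null cells with peptide, against 6.61, 7.43 and 6.51 without it, and 8.06, 7.17 and 7.53 in wild-type cells with peptide, against 6.97, 5.95 and 5.93 without. Null replicate 2 was the highest null mouse in both conditions, as it was for the mean of the B cell markers, with 9.33 with peptide and 9.92 without; their part in the Tnfsf8 signal was not tested. The rise was 2.39-fold in null cells (1.26, SE 0.38, limma adjusted p = 0.027) and 2.46-fold in wild-type cells (1.30, SE 0.38, adjusted p = 0.02). The spread between mice was wide, and the null call was lost without null replicate 1 (adjusted p = 0.094) or null replicate 3 (adjusted p = 0.087), the wild-type call without wild-type replicate 2 (adjusted p = 0.067) or wild-type replicate 3 (adjusted p = 0.13).

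Cd40lg is the ligand by which CD4 helper T cells activate B cells and dendritic cells. Its signals (1422283_at) lay between 4.79 and 5.39 on the 12 arrays, near the median probe set at 4.71. These are low on a scale from 2.43 to 15.07. The change with peptide was 0.070 in null cells (interval -0.18 to 0.32, limma adjusted p = 0.76) and 0.18 in wild-type cells (-0.07 to 0.43, adjusted p = 0.3). Without peptide the null values of 4.79, 4.82 and 4.82 lay below the wild-type values of 5.00, 4.86 and 5.10, which also happened for 6.78% of all genes, and the difference of -0.18 did not pass (limma adjusted p = 0.69).

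Between the genotypes, Tnfsf11 was the ligand gene called, and with peptide alone. Without peptide 0 of 10 ligand genes passed in limma, and 0 had an unadjusted p under 0.05, against 0.044% and 10.6% of all genes. With peptide 3 had an unadjusted p under 0.05, namely Tnfsf11, Ltb (0.45 higher in null cells, interval 0.09 to 0.81, limma adjusted p = 0.22) and Cd40lg (-0.29, interval -0.54 to -0.04, adjusted p = 0.24), against 17.6% of all genes. Of the intervals of the other 9 genes the lowest bound was -0.63, for Tnfsf9, so a difference as low as the -1.94 of Tnfsf11 lay outside all of them. They were widest for Tnfsf8 (0.52, interval -0.30 to 1.35) and Fasl (0.28, interval -0.41 to 0.98), and so took in higher signals in null cells up to those bounds. An interval that left out 0 did not suffice for a call, as for Ltb and Cd40lg, so differences could be missed in the other genes too. In the difference of the stimulation effects 0 ligand genes passed and 1, Tnfsf11, had an unadjusted p under 0.05, against 0.0055% and 7.71% of all genes; 0 passed when blocked by mouse.

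**Figure D3:**
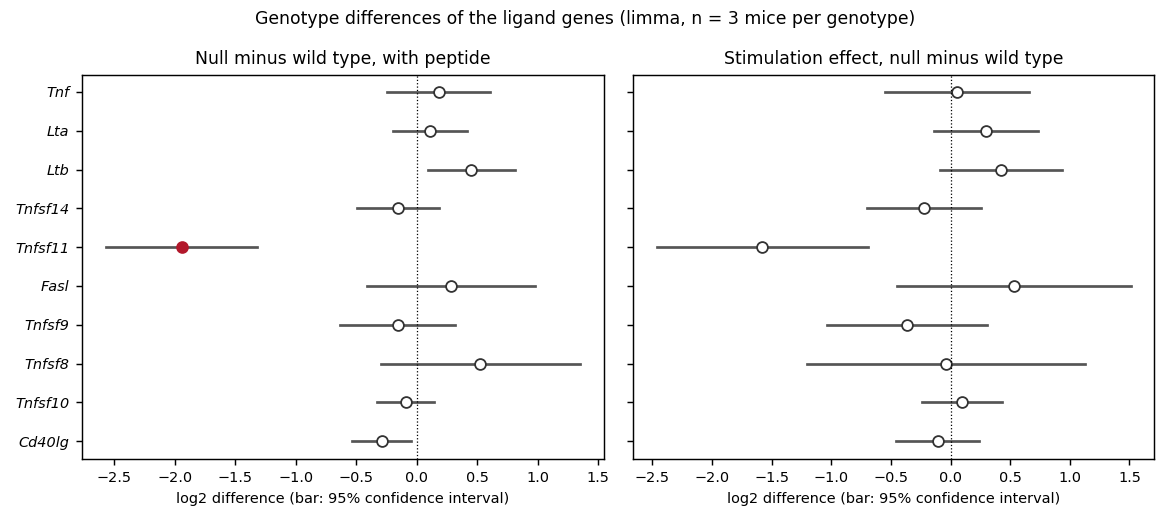
Null minus wild-type log2 difference with peptide (left) and difference of the stimulation effects (right), with 95% confidence intervals; a filled red point is called at an adjusted p under 0.05. Tnfsf11 stands at -1.94 with peptide, and the other 9 genes lie between -0.29 and 0.52.

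The ligand genes differed in how closely they moved together over the 12 arrays, which share the same 4 groups. Pearson's r was 0.994 between Tnf and Lta, 0.992 between Tnf and Tnfsf14 and 0.917 between Tnf and Tnfsf11, but 0.0018 between Tnf and Ltb. Fasl and Tnfsf8, whose mice varied within groups, had an r of 0.890 with each other. Among the other 18192 genes the most alike was Rgs16 for Tnf (r = 0.997), Ccnd2 for Lta (0.998), Naf1 for Tnfsf14 (0.998), Nle1 for Tnfsf9 (0.991) and Sult2b1 for Tnfsf11 (0.992). For Fasl it was Il21r (0.968) and for Tnfsf8 Tox2 (0.959). An r above 0.95 was common, with 1076 genes for Tnf, 1153 for Tnfsf14 and 409 for Tnfsf11, but 2 for Fasl and 1 for Tnfsf8.

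Several of the genes are neighbours in the RefSeq annotation of GRCm38.p6. On chromosome 17 Tnf and Lta are adjacent, and 1 annotated gene, a microRNA gene, lies between Tnf and Ltb. Elsewhere on chromosome 17 Tnfsf9 is adjacent to Cd70, with 1 gene between Cd70 and Tnfsf14. Of the first group Tnf and Lta rose with antigen and Ltb did not pass, and of the other group Tnfsf9, Cd70 and Tnfsf14 each rose in both genotypes. Tnfsf11 lies on chromosome 14, away from the other members, as do Tnfsf10 on chromosome 3, Tnfsf8 on 4, Fasl on 1 and Cd40lg on X.

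The promoters of 8 members were matched in RefSeq (GRCm38.p6), and not those of Tnfsf9 and Cd40lg. The 250 bases before the annotated start are shown 5′ to 3′ for the adjacent genes that rose or did not pass (Tnf, Lta, Ltb), for the ligand with the largest change (Tnfsf14) and for the ligand that was lower in null cells (Tnfsf11). Capitals mark matches on either strand to an NF-kappaB pattern (GGG and CC separated by any 5 bases), the NFAT core (GGAAA), an AP-1 site (TGANTCA) or a TATA box (TATAAA).
Tnf, chr17:35202008-35202257, minus strand: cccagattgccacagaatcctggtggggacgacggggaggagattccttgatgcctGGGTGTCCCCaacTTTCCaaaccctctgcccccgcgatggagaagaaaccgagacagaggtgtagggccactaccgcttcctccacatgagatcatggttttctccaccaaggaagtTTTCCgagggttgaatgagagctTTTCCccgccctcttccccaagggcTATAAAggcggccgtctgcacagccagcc
Lta, chr17:35205352-35205601, minus strand: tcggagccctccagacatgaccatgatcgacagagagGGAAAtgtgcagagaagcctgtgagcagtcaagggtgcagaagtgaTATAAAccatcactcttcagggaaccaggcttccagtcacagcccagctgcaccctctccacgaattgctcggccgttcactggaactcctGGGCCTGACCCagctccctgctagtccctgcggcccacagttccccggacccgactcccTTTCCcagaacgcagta
Ltb, chr17:35194257-35194506, plus strand: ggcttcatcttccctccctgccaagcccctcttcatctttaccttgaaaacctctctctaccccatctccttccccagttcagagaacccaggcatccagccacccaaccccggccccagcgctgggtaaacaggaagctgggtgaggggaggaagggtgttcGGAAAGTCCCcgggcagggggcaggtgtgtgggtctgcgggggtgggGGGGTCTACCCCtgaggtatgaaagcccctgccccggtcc
Tnfsf14, chr17:57194182-57194431, minus strand: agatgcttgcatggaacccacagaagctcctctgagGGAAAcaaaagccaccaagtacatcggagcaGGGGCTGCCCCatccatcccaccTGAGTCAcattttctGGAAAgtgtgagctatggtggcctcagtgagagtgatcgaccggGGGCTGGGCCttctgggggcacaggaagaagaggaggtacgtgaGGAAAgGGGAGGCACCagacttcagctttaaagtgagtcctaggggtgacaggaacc
Tnfsf11, chr14:78308044-78308293, minus strand: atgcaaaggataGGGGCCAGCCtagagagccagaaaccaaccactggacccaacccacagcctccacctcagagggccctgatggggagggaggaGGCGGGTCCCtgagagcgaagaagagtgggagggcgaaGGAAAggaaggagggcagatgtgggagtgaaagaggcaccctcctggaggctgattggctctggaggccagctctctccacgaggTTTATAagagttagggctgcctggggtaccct

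The NFAT core was found before the start of 8 of the 8 members, and of 55.6% of all 32851 promoters. The NF-kappaB pattern was found in 6 of 8, against 45.8% of all promoters, and in Ltb, whose signal did not pass with antigen, it was present as well and overlapped an NFAT core. The TATA box was found in Tnf, Lta and Tnfsf11, against 12.4% of all promoters, and the AP-1 site in Tnfsf14 alone, against 6.75%. The EGR pattern (GCGNGGGCG, 4.7% of all promoters), the MEF2 pattern (CTA and TAG separated by any 4 bases, 3.2%) and the cyclic AMP element (TGACGTCA, 1.55%) were found in 0 of the 8. The TATA letters lay at positions -29 to -24 from the start in Tnf, at -167 to -162 in Lta and, on the opposite strand, at -32 to -27 in Tnfsf11. These letters describe a window of 250 bases and say nothing of binding.

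**Figure D4:**
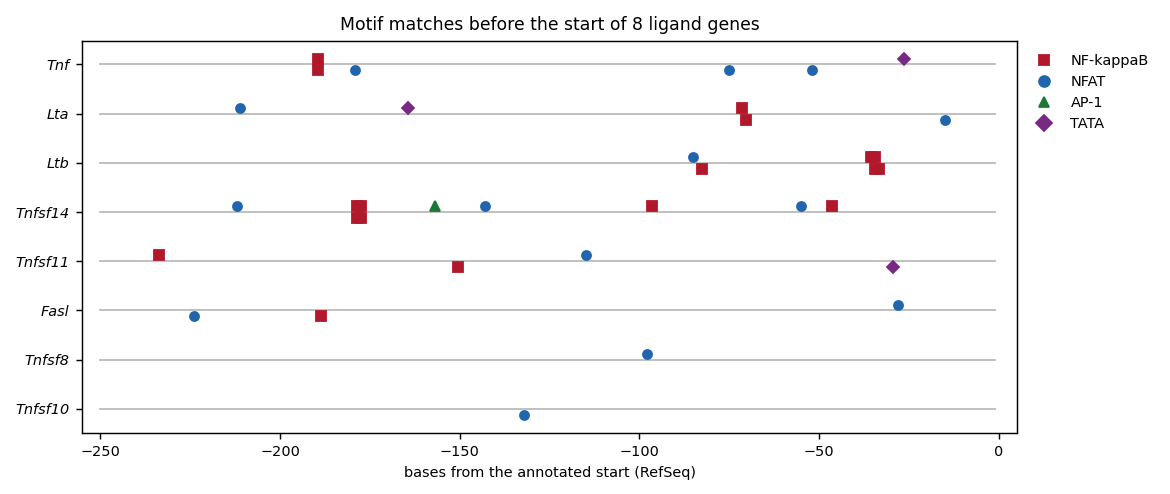
Positions of motif matches in the 250 bases before the annotated start of 8 ligand genes; the x axis is the distance from the start in bases, and marks above a line are on the gene's strand, those below on the other. Tnf, Lta, Ltb, Tnfsf14, Tnfsf11 and Fasl carry the NF-kappaB pattern, and all 8 the NFAT core.

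Other genes of the pathway were read from lists of receptors, other ligands, signalling proteins and cleavage enzymes. Of 13 receptors of these ligands 4 rose in null cells and 3 in wild-type cells, and 0 fell, where 31.5% and 35.5% of all genes were called either way. Tnfrsf9, which encodes the receptor CD137 for the Tnfsf9 ligand, changed by 3.88 in null cells and 4.77 in wild-type cells. Tnfrsf1b, a TNF receptor of lymphocytes, changed by 1.07 and 1.14, and Cd40, the receptor of the Cd40lg ligand, by 0.80 and 1.71, in null and wild-type cells. Fas was called in null cells (0.49, limma adjusted p = 0.024) and, when blocked by mouse, in wild-type cells (0.40, adjusted p = 0.058 without and 0.016 with the block). In that blocked fit the difference of the stimulation effects of Cd40 was called too (-0.92, adjusted p = 0.66 without and 0.049 with the block). Tnfrsf11a, which encodes RANK, and Tnfrsf11b, its decoy osteoprotegerin, had group means of 4.51 to 4.74 and 3.79 to 4.07 and were not called; they are named as receptors of the Tnfsf11 product, after their values were seen.

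Of 4 other ligands of the family measured, Cd70 was called, with a change of 0.87 in null cells (SE 0.21, limma adjusted p = 0.0068) and 1.63 in wild-type cells (SE 0.21, adjusted p = 4.3e-05). Its means were 4.92 with peptide and 4.05 without in null cells and 5.47 with peptide and 3.84 without in wild-type cells. Of 17 signalling genes 2 rose and 7 fell in either genotype. Among all genes, 12.5% rose in null and 15.1% in wild-type cells, and 31.5% and 35.5% were called either way. Cflar, an inhibitor of caspase-8 (0.75 in null, 1.00 in wild-type cells), and the adaptor gene Traf4 (0.85 and 1.00) rose. The adaptor gene Traf5 fell by 0.76 in null and 0.72 in wild-type cells, the ubiquitin ligase gene Birc2 by 0.62 and 0.73, and the deubiquitinase gene Cyld by 0.61 and 0.72. Of 6 cleavage genes, Sppl2a, an intramembrane protease, fell by 0.53 in null and 0.67 in wild-type cells, and Sppl2b fell by 0.36 in wild-type cells. Between the genotypes 0 genes of these 4 lists passed in limma, with or without peptide. Of their 40 genes 9 had an unadjusted p under 0.05 with peptide and 3 without, against 17.6% and 10.6% of all genes.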

How the data were processed

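Expression was measured on 12 Affymetrix arrays of lymph node cells. The deposited values are log2 signals per probe set, which the authors made with Affymetrix Expression Console 1.1, per the submitters' processing notes, and no source used here names how they were normalized. The lowest value was 2.43 and the highest 15.07, and array medians lay between 4.66 and 4.72, so values were used as deposited. Of 45101 probe sets, 64 controls were left out. A single gene symbol was annotated to 34945, while 932 with several symbols and 9160 with none named no gene. The number of arrays limits the precision.

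A group-means model without a block was run in limma (3.58.1, under R 4.3.3), and 5 comparisons were tested: stimulation in each genotype, genotype with and without peptide, and the difference of the stimulation effects. The fit was also run on simulated data with independent noise on each array, so that run does not bear on the pairing by mouse. The 10 members and the gene and marker lists were chosen with earlier results of these data known. Named are all 10 members, Prkd2, up to 5 called genes of each pathway list with the largest change, and the gene most alike by Pearson's r. Genes of the lists without a probe set of their own were not analysed here.

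The sample titles number the arrays in each group and name no mouse. Arrays of a genotype with the same number, with and without peptide, were taken as those of 1 mouse. Deviations from the group means correlated at 0.116 to 0.577 between arrays of the same number and at -0.399 to 0.129 between those of different numbers. These ranges overlap. The deviations within a group cancel, so positive values for the same number bring negative ones for different numbers, and the correlations do not settle the pairing. Alternatives were the mouse as a fixed or random block, quantile normalization or median centring, a filter on dim probe sets, a trended prior, the mean of a gene's probe sets, and leaving out each mouse. Marker lists were also counted for stimulation: of 7 CD8 T cell markers 2 fell in null and 4 in wild-type cells. Of 12 B cell markers 5 fell in null cells, and 7 fell and 1 rose in wild-type cells. Of 5 plasma cell markers 3 fell in null and 2 in wild-type cells. Of 4 CD4 T cell markers 1 rose in null cells, and 1 rose and 1 fell in wild-type cells. Of 9 myeloid markers 1 fell in null cells, and 1 rose and 1 fell in wild-type cells. Of 5 NK cell markers 1 rose and 1 fell in either genotype. Of 6 stromal markers 1 rose and 1 fell in null cells and 1 fell in wild-type cells. Of 6 salivary gland transcripts 0 were called in either. Among all genes 31.5% were called for stimulation in null and 35.5% in wild-type cells. Between genotypes without peptide 0 markers were called in any list by limma. An unadjusted p under 0.05 was found for 19 of 54, against 10.6% of all genes. They were 11 of 12 B cell markers (median difference 0.66), 3 of 5 plasma cell markers (0.94) and 2 of 4 CD4 T cell markers. The rest were 1 myeloid marker, 1 NK cell marker and 1 salivary gland transcript, with 0 CD8 T cell and 0 stromal markers.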

Additional observations from a re-analysis of the deposited data

Results flagged for a closer look

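Ltb was singled out because its signal went up with peptide in all 3 null mice and down in all 3 wild-type mice. The changes were 0.09, 0.17 and 0.28 in null cells, against -0.09, -0.25 and -0.39 in wild-type cells. The difference of 0.42 (interval -0.09 to 0.93) was tested in limma and did not pass, with an adjusted p = 0.76, or 0.28 when blocked by mouse. The values lie near the top of the scale, and responses of null mice all above those of wild-type mice occurred for 7.25% of all genes.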

How the results depend on the processing

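The 7 ligand genes that rose were all called under each normalization, filter and block tried. Exceptions were Tnfsf8 in null cells with a trended robust prior (limma adjusted p = 0.057), and the leave-one-out cases of Tnfsf8 and Fasl: between 6 and 7 were called in null cells and between 5 and 7 in wild-type cells. With peptide, between 0 and 1 ligand genes were called between the genotypes (0 without wild-type replicate 3), and Tnfsf11 ranged from -2.04 to -1.77. With the replicate block for pairing by mouse, the ligand counts were 7 and 7 for stimulation and 0 for the difference, and no call of a ligand's main probe set changed; over all genes the difference had 1 called without and 25 with the block.

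Pathway counts moved with the replicate block to 5 receptors (4 up, Fas added, and Tnfrsf23 down) and 2 other ligands, Cd70 and Tnfsf4, in wild-type cells, and to 1 receptor, Cd40, in the difference of the effects. Signalling genes went to 2 up and 9 down in null cells, with Casp8 (adjusted p = 0.043) and Birc3 (0.03) added, and to 3 up and 8 down in wild-type cells, with Traf1 (0.013) up and Fadd (0.047) down added. The filter on dim probe sets added the same 4 signalling genes, and Fas in wild-type cells (adjusted p = 0.037). With this filter, which leaves out Cd70, 0 other ligands were called in null and 0 in wild-type cells, and 1 cleavage gene, Adam17, was called higher in null than in wild-type cells with peptide (0.32, limma adjusted p = 0.048, and 0.089 without the filter). Genes named here beyond those of the report were picked for these changes.

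Signs turned for uncalled values near 0. Tnfsf10 turned with the mean of its probe sets, to 0.064 in null and 0.029 in wild-type cells, and Tnfsf11 without peptide with its other probe set, to 0.091. Leaving out mice, Tnfsf10 ranged from -0.11 to 0.073 in null cells, -0.28 to 0.026 in wild-type cells, -0.16 to 0.0024 between genotypes with peptide and -0.032 to 0.27 in the difference. Lta with peptide ranged from -0.060 to 0.25. Without peptide Ltb ranged from -0.051 to 0.16, Tnfsf14 from -0.10 to 0.18, Tnf from -0.086 to 0.36 and Tnfsf9 from -0.0063 to 0.35. In the difference of the effects Tnf ranged from -0.11 to 0.17 and Tnfsf8 from -0.15 to 0.11. The cause was not tested in any of these. Dim signals near that of the median probe set, as of Tnfsf10 and Cd40lg, limit the changes that can be seen.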
